A study of Drosophila melanogaster with 93 samples.

Results

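The genes described here encode 7 octopamine and tyramine receptors, *Oamb*, *Octbeta1R*, *Octbeta2R*, *Octbeta3R*, *Oct-TyrR*, *TyrR* and *TyrRII*, of *Drosophila melanogaster*. They were chosen by name, for their function and not for a measured value, out of 18164 annotated genes. For each gene, the percentage of bases that lay in an H3K9me3 peak was taken in each of 31 peak lists. It was measured over the gene body, from the annotated start to the annotated end, and over a window of 3 kb on each side of the annotated transcription start site (TSS).

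H3K9me3 was mapped by sequential ChIP-seq, in which chromatin was first precipitated with an antibody to the mark and then through a biotinylated histone H2B tag, Chromatag, so that chromatin of the tagged neurons is enriched. All flies were mutant for *w* and carried *UAS-Gal4*, which amplifies the driver, over *UAS-Chromatag*, with 1 copy of a Gal4 driver in addition. With *elav-Gal4/+*, the tag marks neurons broadly, and males and females were collected as 1-day adults. With *fru P1-Gal4/+*, the tag marks neurons that use the P1 promoter of *fruitless*, whose transcripts encode a transcription factor in males only, and males and females were collected at 48hr after puparium formation (48hr APF) and as 1-day and 10–12 day adults. Each group held 4 biological replicates, except 3 of 10–12 day *fru P1* females, and each replicate was a pool of sex-sorted flies. Pupae were used whole and adults as heads, so that 48hr APF cannot be told apart from the tissue used, whereas 1-day and 10–12 day adults share it. As the mark was measured in pools, fewer cells that carry it and less of it per cell cannot be told apart. Of 93 samples in the series, the 62 of input chromatin and of histone H3 were not analysed here.

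Octopamine and tyramine are the invertebrate counterparts of noradrenaline and adrenaline. Tyramine is made from tyrosine and octopamine from tyramine, and both act on G protein-coupled receptors in neurons, muscle and gland. In the fly, octopamine signalling is known for roles in aggression, courtship, sleep, learning and ovulation. H3K9me3 is the histone mark of constitutive heterochromatin, is bound by HP1 proteins and usually accompanies silenced sequence.

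The libraries held 18036 to 28267 peaks. After filtering, the 8 *elav* libraries held 2295291 to 3012794 tags, and *elav* male replicate 3 alone was called with a fragment length of 140 bp in place of 200 bp. Of the 23 *fru P1* libraries, 22 held 3856798 to 6306013 tags and 10–12 day male replicate 1 held 2119672. Receptor differences that were lost without these 2 libraries are given with and without them. Genes of the other lists are given only with them. Peaks covered 22.14 to 28.07% of the autosomes in *elav* libraries, 22.92 to 27.65% in 48hr APF, 28.67 to 34.98% in 1-day and 20.49 to 28.09% in 10–12 day *fru P1* libraries. Enrichment was low, and at most 0.937% of the peaks of a library had a q-value below 0.05, in a column that the headers of the lists describe as not calculated. The median fold enrichment of peaks was 1.593 to 1.723 in *elav* libraries. In *fru P1* libraries it was 1.426 to 1.501 at 48hr APF, 1.472 to 1.532 at 1 day and 1.438 to 1.602 at 10–12 days. A cutoff of 1.5-fold, used below, therefore keeps unlike shares of peaks, and *elav* minus *fru P1* differences at that cutoff cannot be told apart from this. The share of peaks on the X was 1.61 to 9.34% in male and 16.65 to 18.83% in female libraries, and all 7 receptor genes are autosomal. The paper reports that few peaks could be called on the male X. Lower coverage of an X-linked gene in males can therefore not be told apart from this limit of peak calling. *elav* libraries were called against the input of a replicate, with 9951738 to 19100490 tags, and *fru P1* libraries against a pooled input of 41654025 to 55285173 tags. Cell type can therefore not be told apart from depth and from the kind of input. All libraries of a *fru P1* group shared the same input tag count, and each group had its own. Stage and sex in *fru P1* neurons can therefore not be told apart from the input either. The cell type was not checked against marker genes, since a repressive mark gives no expression level.

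All 7 receptor genes carried H3K9me3 peaks over the gene body in all 31 libraries. They are 10860 to 45101 bp long, and peaks covered 20.49 to 34.98% of the autosomes. The share of genes of like length with a peak in every library was not counted, so this is not read as a trait of the receptors. Mean coverage of the gene body was 39.0 ± 10.4% in *Oct-TyrR*, 37.7 ± 12.5% in *Octbeta1R*, 33.4 ± 15.3% in *TyrR*, 31.6 ± 11.7% in *Octbeta3R*, 30.8 ± 13.3% in *Oamb*, 30.6 ± 16.1% in *TyrRII* and 30.3 ± 13.8% in *Octbeta2R* (SD, n = 31). Each gene differed from its neighbour in this order by less than either SD. Against all genes with any coverage, these means lay between percentile 65.1 (*Octbeta2R*) and percentile 77.8 (*Oct-TyrR*). Those genes include the X-linked ones, whose means are lowered by the low coverage of the X in males. Percentiles among autosomal genes alone were not taken. The peaks were weak. The highest fold enrichment over a receptor gene body had a median over libraries of 1.57 (*TyrRII*) to 1.72 (*Octbeta3R*), and 1 library had a peak with a q-value below 0.05, in *Oct-TyrR*. The order of the genes was different around the TSS, where coverage averaged 44.5% in *Oamb*, 41.5% in *Octbeta1R*, 39.3% in *TyrR* and 38.8% in *Oct-TyrR*, but 26.2% in *Octbeta2R*, 23.3% in *TyrRII* and 22.0% in *Octbeta3R*.

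**Figure D1:**
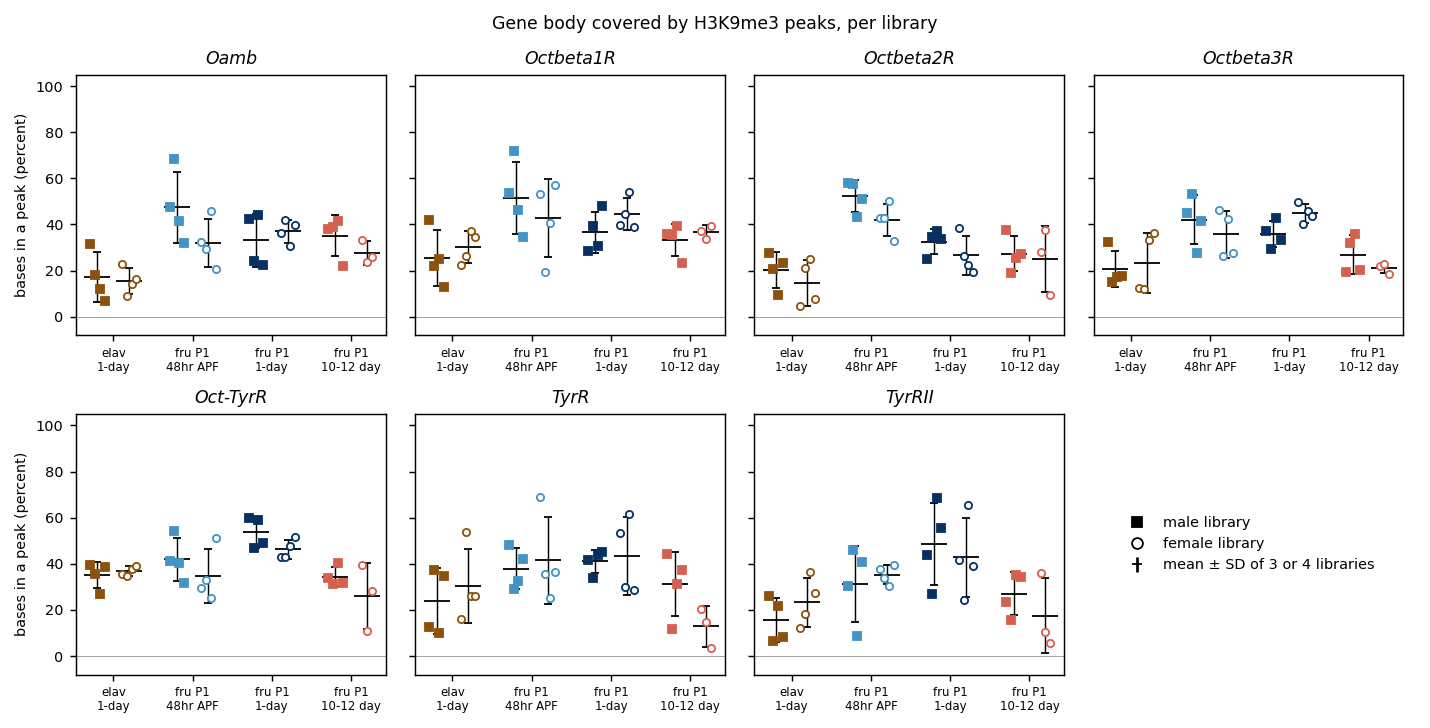
Percentage of gene body bases in an H3K9me3 peak (vertical axis) in each library of the 7 receptor genes, by stage and cell type (horizontal axis). Squares are male and open circles female libraries, with mean and SD of 3 or 4 libraries. *Octbeta2R* sits at 32.8 to 58.1% in the 48hr APF libraries and at 27.5% or less in the *elav* libraries.

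Introns were covered more than exons in 5 of the 7 genes. The share of other genes with this order was not counted, so it is not read as a trait of the receptors. The widest gap was in *Octbeta1R*, with a mean of 42.9 ± 14.9% over introns and 20.8 ± 9.79% over exons (SD, n = 31), and *Octbeta2R* had 32.5 ± 14.4% and 19.1 ± 17.2%. *TyrRII* was nearly level, with 30.5 ± 16.2% over introns and 30.8 ± 22.0% over exons, and *Oamb* had a lower mean over introns, 29.4 ± 14.5%, than over exons, 35.6 ± 19.8%.

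Introns made up 57.96% (*TyrR*) to 87.84% (*Oct-TyrR*) of the gene bodies, and within each body the interval that lay under a peak in the most libraries was intronic. These sequences are shown because they lay under a peak most often within each gene, in 19 (*Octbeta2R*) to 25 (*Oct-TyrR*) of the 31 libraries. They are given 5′ to 3′ on the strand of the gene, in dm6, from the RefSeq genome, in lower case throughout since no part is singled out.
Oamb, chr3R:20704427-20704476, minus strand: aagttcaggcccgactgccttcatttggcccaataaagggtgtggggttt
Octbeta1R, chr3R:22502270-22502390, plus strand: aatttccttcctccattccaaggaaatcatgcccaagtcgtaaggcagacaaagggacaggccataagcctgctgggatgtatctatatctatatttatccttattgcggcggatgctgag
Octbeta2R, chr3R:12568133-12568182, minus strand: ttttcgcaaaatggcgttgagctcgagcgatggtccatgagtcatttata
Octbeta3R, chr3R:12530036-12530082, minus strand: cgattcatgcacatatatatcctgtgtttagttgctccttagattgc
Oct-TyrR, chr3L:22048527-22048561, plus strand: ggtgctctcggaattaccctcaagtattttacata
TyrR, chr3R:17760033-17760063, minus strand: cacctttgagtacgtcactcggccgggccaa
TyrRII, chr3R:17741133-17741233, plus strand: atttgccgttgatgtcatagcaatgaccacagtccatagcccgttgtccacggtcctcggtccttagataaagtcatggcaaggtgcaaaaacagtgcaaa

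The intervals were 31 to 121 bp long. Their GC content was 38.3% (*Octbeta3R*) to 61.3% (*TyrR*), whereas the gene bodies had 41.5 to 43.9%. The *TyrR* interval lay under a peak in 2 of 7 10–12 day *fru P1* libraries and in 8 of 8 1-day libraries. The *Octbeta2R* interval was covered in 2 of 8 *elav* libraries, and in *fru P1* libraries in 7 of 8 at 48hr APF, 7 of 8 at 1 day and 3 of 7 at 10–12 days. The *Oamb* interval was covered about as often in each, in 6 *elav* libraries and in 6, 5 and 6 *fru P1* libraries by rising age.

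Coverage was compared between sexes, stages and cell types with limma on all genes, and a difference is called at an adjusted p (Benjamini-Hochberg over all genes) below 0.05. Differences are in percentage points of covered bases. Permutation p-values of single receptors are unadjusted, so they are not comparable with the adjusted p and make no call. Over the gene body, none of the 7 receptor genes was called higher in any of the 5 comparisons. Few genes were called higher in most of them. Of 17216 genes these were 72 in males against females, 1802 at 1 day against 48hr APF and 813 at 10–12 days against 1 day. They were 533 at 10–12 days against 48hr APF and 180 in *elav* against *fru P1*. Called lower were 1 of 7 between 1-day and 48hr APF, *Octbeta2R*, against a background of 1.78% of all genes called lower. Between 10–12 days and 1 day it was 2 of 7, *Oct-TyrR* and *TyrRII* (background 5.57%), and between 10–12 days and 48hr APF 1 of 7, *Octbeta2R* (background 0.418%). Between *elav* and *fru P1* at 1 day it was 3 of 7, *Oamb*, *Octbeta3R* and *TyrRII* (background 5.92%). In the TSS window, *Octbeta2R* and *Octbeta3R* were called lower at 1 day than at 48hr APF (background 3.65%), and *Octbeta2R* was called lower at 10–12 days than at 48hr APF (background 0.928%).

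**Figure D2:**
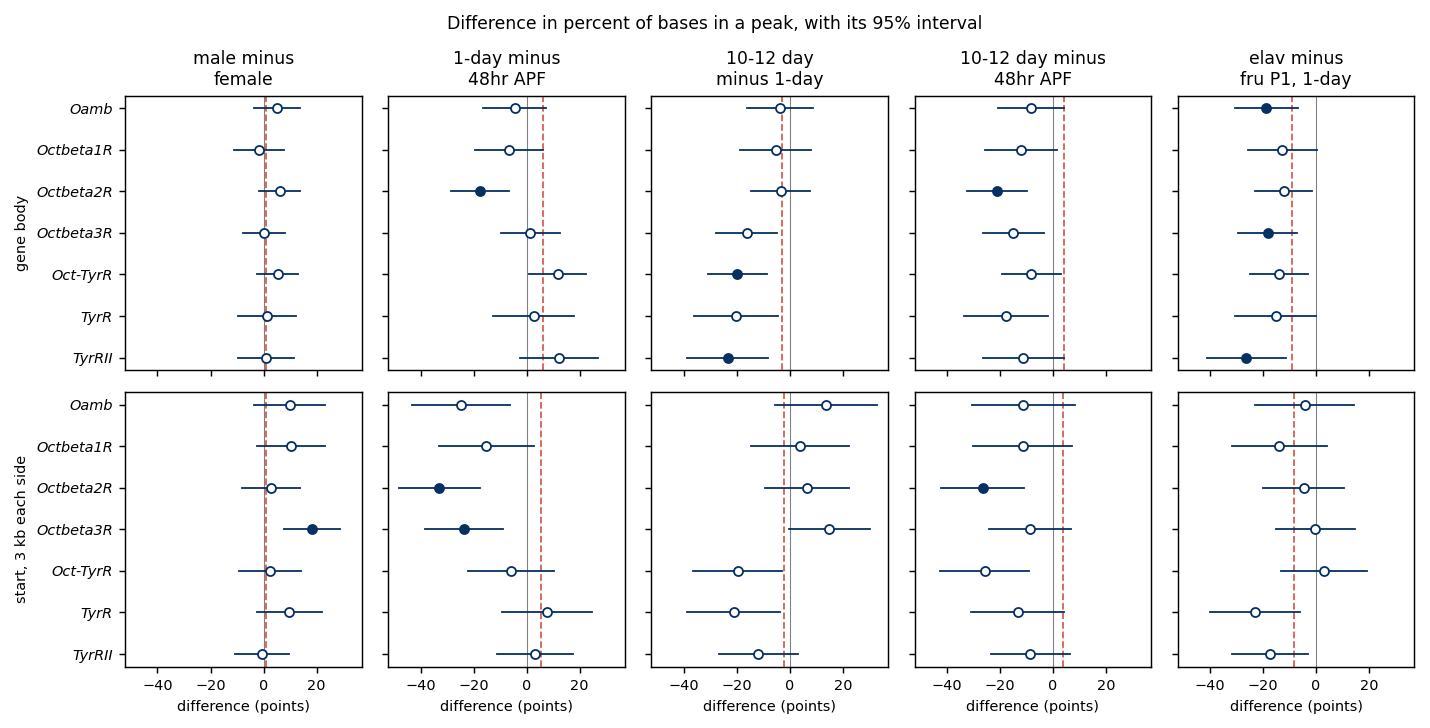
Difference in the percentage of bases in a peak, in points (horizontal axis), for each receptor gene (vertical axis), with its 95% interval from limma. Rows of panels are the gene body and the TSS window, and columns are the 5 comparisons. The largest called difference is −32.86 points, in the TSS window of *Octbeta2R* between 1-day and 48hr APF.

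Over the gene body, all 7 receptors had a negative difference between *elav* and *fru P1*, between 10–12 days and 1 day and between 10–12 days and 48hr APF, with medians of −15.2, −16.3 and −12.005 points. Over all 17216 genes tested, the medians of the same differences were −7.89, −2.04 and 4.63 points, and 4185, 7616 and 10747 genes had a positive difference. The pattern was not particular to these receptors. Of 9 dopamine and serotonin receptor genes, described below, 0, 1 and 1 had a positive difference, with medians of −12.3, −10.4 and −9.04 points. Between 1 day and 48hr APF, 4 of 7 receptors and 10729 of 17216 genes had a positive difference, with medians of 1.44 and 5.79 points. These comparisons share libraries and are not independent of each other. Subtracting from each value its library's mean over autosomal genes bears on all of them, and the values under it are given beside each receptor call.

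*Oamb* (FBgn0024944) lies at chr3R:20689018-20714577 on the minus strand and encodes the α-adrenergic-like octopamine receptor, which raises calcium and acts in the mushroom body and the oviduct. Gene body coverage in the 8 *elav* libraries had a lowest value of 6.89%, a median of 15.3% and a highest value of 31.7%, against 22.5%, 37.9% and 43.9% in the 8 1-day *fru P1* libraries. Most *elav* libraries were low, but the groups overlapped through *elav* male replicate 1, at 31.73%, and *elav* female replicate 1, at 22.85%. The difference was −18.74 points (SE 5.78, 95% interval −30.6 to −6.86, limma adjusted p = 0.0483), with an exact permutation p within sexes of 0.00204. The call stood at the threshold. It was lost when any one of 21 of the 31 libraries was left out, with an adjusted p of up to 0.107 without 1-day *fru P1* male replicate 3, and it held only without 48hr APF male replicates 2 and 4, 48hr APF female replicates 1, 3 and 4, 1-day male replicates 2 and 4, 10–12 day male replicates 3 and 4 or *elav* male replicate 1. After subtraction of the library mean it was −9.58 points (adjusted p = 0.393), and without the 2 libraries that stood apart −17.9 points (adjusted p = 0.0947). With stricter peaks it was not called either, at −0.0215 points (adjusted p = 1) with peaks of at least 1.5-fold enrichment, −5.8 points (adjusted p = 0.721) with the 10000 peaks of smallest p and −20.78 points (limma adjusted p = 0.0973) at a p-value cutoff of 0.05. Around the TSS, *Oamb* had a lowest value of 25.8%, a median of 35.4% and a highest value of 45.9% in 1-day *fru P1* adults. At 48hr APF these were 16.6%, 64.6% and 86.1%, and the 48hr APF range enclosed the 1-day range. That difference, −24.79 points, had an adjusted p of 0.0526 and an exact permutation p of 0.0106, and was not called.

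*Octbeta1R* (FBgn0038980, chr3R:22497215-22520078, plus strand) encodes the first of the β-adrenergic-like receptors, which raise cAMP, and at the larval neuromuscular junction it restrains synaptic growth. No comparison of *Octbeta1R* was called. Its gene body coverage averaged 27.8 ± 9.52% (SD, n = 8) in *elav* neurons, and in *fru P1* neurons 47.2 ± 15.8% (n = 8) at 48hr APF, 40.5 ± 8.43% (n = 8) at 1 day and 34.9 ± 5.48% (n = 7) at 10–12 days. The *elav* minus *fru P1* difference was −12.67 points with an exact permutation p of 0.0139, but did not pass the adjusted threshold of limma. Around its TSS, *Octbeta1R* averaged 26.3 ± 13.3% (SD, n = 8) in *elav* neurons, and in *fru P1* neurons 55.4 ± 21.7% (n = 8) at 48hr APF, 40.1 ± 17.5% (n = 8) at 1 day and 44.5 ± 18.9% (n = 7) at 10–12 days.

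*Octbeta2R* (FBgn0038063, chr3R:12550625-12595725, minus strand) encodes the second β-like receptor, which is required for ovulation, and its body nests the microRNA gene *mir-284*. Its gene body coverage averaged 17.5 ± 8.75% (SD, n = 8) in *elav* neurons, and in *fru P1* neurons 47.2 ± 8.57% (n = 8) at 48hr APF, 29.6 ± 7.19% (n = 8) at 1 day and 26.4 ± 9.91% (n = 7) at 10–12 days. The 48hr APF mean was the highest of the 7 genes at that stage, beside 47.2% in *Octbeta1R*. At 1 day, *fru P1* gene body coverage was 25.1, 34.5, 37.3 and 33.6% in males and 38.3, 26.5, 22.4 and 19.4% in females (replicates 1 to 4). At 48hr APF it was 58.1, 57.6, 43.2 and 51.0% in males and 42.6, 42.6, 49.98 and 32.8% in females. The groups overlapped only through 48hr APF female replicate 4. The difference was −17.60 points (SE 5.26, 95% interval −28.4 to −6.80, limma adjusted p = 0.0291, exact permutation p = 0.000816). After subtraction of the library mean, it was −27.23 points (adjusted p = 0.00194). The call was lost without any one of 48hr APF male replicate 1 (adjusted p = 0.0546), 48hr APF female replicate 3 (0.058), 1-day male replicate 1 (0.0558), 1-day female replicate 3 (0.0543) and 1-day female replicate 4 (0.0619). It was also lost with peaks of at least 1.5-fold enrichment (−8.14 points, adjusted p = 0.46), with the 10000 peaks of smallest p (−14.38 points, adjusted p = 0.0954) and on the arcsine square root scale (adjusted p = 0.061).

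At 10–12 days, gene body coverage of *Octbeta2R* was 37.5, 19.2, 25.5 and 27.2% in males (replicates 1 to 4) and 28.2, 37.4 and 9.47% in females (replicates 1, 3 and 4). Compared with the same 48hr APF libraries, it was lower by a difference of −21.05 points (SE 5.47, 95% interval −32.3 to −9.80, limma adjusted p = 0.0323, exact permutation p = 0.00122), and by −25.88 points (adjusted p = 0.0147) after subtraction of the library mean. The call was lost, with an adjusted p of 0.0506 to 0.0748, without any one of 48hr APF male replicate 1, 48hr APF female replicates 2 and 3, 10–12 day male replicates 2 and 3 and 10–12 day female replicate 4. It was also lost with peaks of at least 1.5-fold enrichment (−12.71 points, adjusted p = 0.662), with the 10000 peaks of smallest p (−15.16 points, adjusted p = 0.167), at a p-value cutoff of 0.05 (limma adjusted p = 0.0707) and on the arcsine square root scale (adjusted p = 0.0564). In *elav* neurons coverage of *Octbeta2R* ran from 4.88 to 27.5% with a median of 21.0%. The *elav* minus *fru P1* difference of −12.12 points had an adjusted p of 0.156 and an exact permutation p of 0.00776.

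The TSS window of *Octbeta2R* showed the widest difference among the receptors. At 1 day, its coverage was 11.4, 15.1, 28.5 and 29.7% in *fru P1* males and 21.8, 10.6, 10.6 and 11.2% in *fru P1* females (replicates 1 to 4). At 48hr APF it was 78.9, 44.1, 48.7 and 34.4% in males and 49.9, 35.7, 44.5 and 65.6% in females. Every 1-day library was below every 48hr APF library, which was the case for 0.332% of all genes tested. The difference was −32.86 points (SE 7.54, 95% interval −48.1 to −17.7, limma adjusted p = 0.00194), and its exact permutation p of 0.000408 is the smallest that this design can give. It was called without any one library (−35.71 to −28.3 points) and was −39.83 points after subtraction of the library mean (adjusted p = 0.00011). It depended on the weaker peaks. With only the peaks at a p-value cutoff of 0.05, limma gave −21.46 points (adjusted p = 0.106), with peaks of at least 1.5-fold enrichment −0.47 points (adjusted p = 1), and with the 10000 peaks of smallest p per library the sign turned, to 1.71 points (adjusted p = 0.941).

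At 10–12 days, the *Octbeta2R* window had 35.4, 40.4, 38.9 and 0% in males (replicates 1 to 4) and 20.8, 35.5 and 0% in females (replicates 1, 3 and 4). Of these 7 libraries, 4 lay within the 48hr APF range, 1 lay within the 1-day range and 2 had no peak in the window. Against 48hr APF the difference was −26.50 points (SE 7.85, limma adjusted p = 0.0347, exact permutation p = 0.00571), and −29.9 points (adjusted p = 0.0187) after subtraction of the library mean. It was lost, with an adjusted p of 0.0707 to 0.0919, without any one of 48hr APF male replicate 1, 48hr APF female replicate 4, 10–12 day male replicate 4 and 10–12 day female replicate 4, and it turned to 0.65 points with peaks of at least 1.5-fold enrichment and to 2.83 points with the 10000 peaks of smallest p. In *elav* neurons the window had 0, 21.1, 5.48 and 7.08% in males and 0, 25.5, 6.22 and 36.3% in females, which overlapped the 1-day *fru P1* values.

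**Figure D3:**
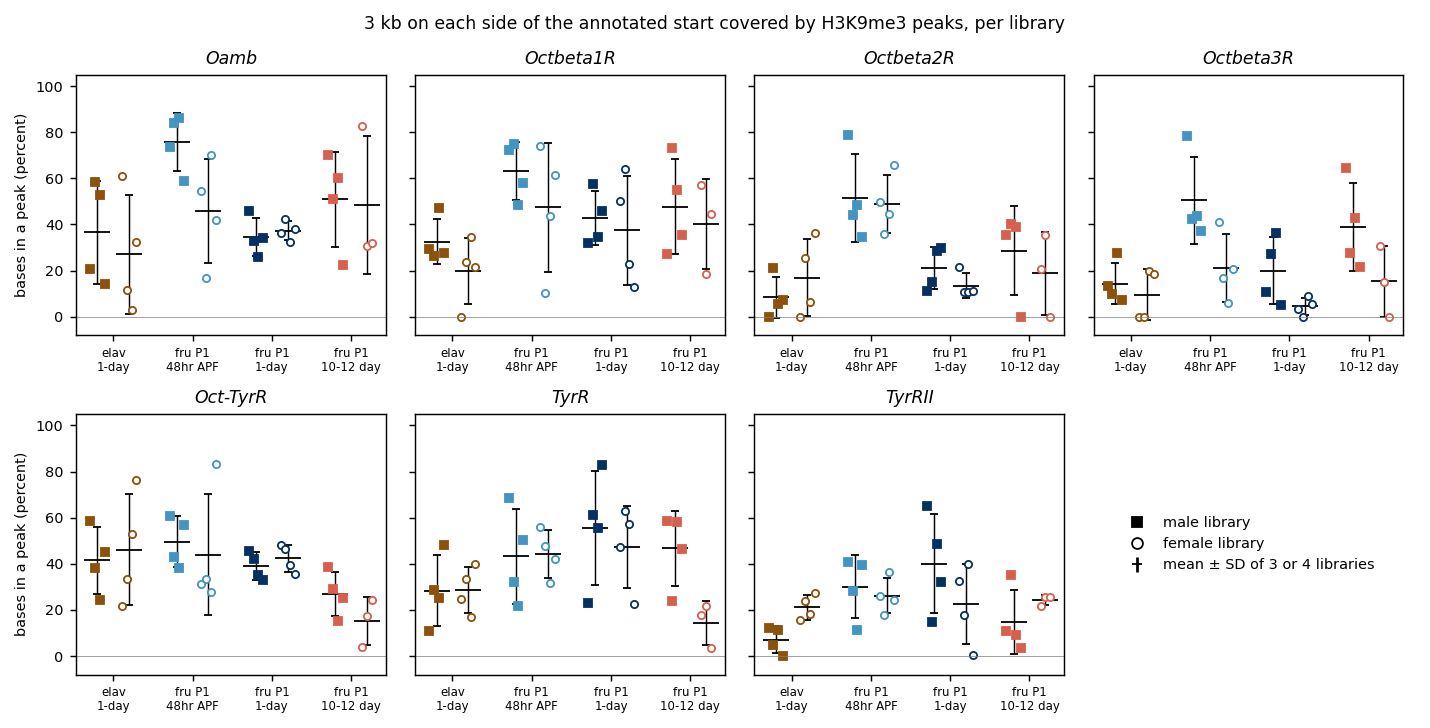
Percentage of bases in an H3K9me3 peak within 3 kb of the annotated start (vertical axis) in each library, by stage and cell type (horizontal axis), for the 7 receptor genes. Squares are male and open circles female libraries, with mean and SD of 3 or 4 libraries. *Octbeta2R* sits at 10.6 to 29.7% in the 1-day *fru P1* libraries and at 34.4 to 78.9% in the 48hr APF libraries.

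*Octbeta3R* (FBgn0250910, chr3R:12511570-12548229, minus strand) encodes the third β-like receptor, which acts in the prothoracic gland in the control of metamorphosis. It is the tandem neighbour of *Octbeta2R*, with 2395 bp between the genes, and its body nests *Hug* and *lncRNA:CR46016*. The TSS windows of the neighbours do not overlap. In the *Octbeta3R* window, 1-day *fru P1* coverage was 10.7, 27.3, 36.5 and 5.03% in males and 3.57, 0, 9.08 and 5.33% in females (replicates 1 to 4). At 48hr APF it was 78.5, 42.5, 43.7 and 37.3% in males and 41.0, 16.9, 6.10 and 20.7% in females. The stages were separate in males and overlapped in females. The difference was −23.63 points (SE 7.34, limma adjusted p = 0.0195, exact permutation p = 0.00122), and −30.6 points (adjusted p = 0.00128) after subtraction of the library mean. Without 48hr APF male replicate 1 it was −18.97 points (adjusted p = 0.0624), and it was not called with only the peaks at a p-value cutoff of 0.05 (limma adjusted p = 0.0735), with peaks of at least 1.5-fold enrichment (adjusted p = 0.192), with the 10000 peaks of smallest p (adjusted p = 0.165) or with 1 kb on each side (adjusted p = 0.0993).

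Over the gene body, *Octbeta3R* had a lowest value of 12.0%, a median of 17.5% and a highest value of 36.3% in *elav* libraries, against 29.5%, 41.6% and 49.7% in 1-day *fru P1* libraries. The 3 highest *elav* libraries, male replicate 1 and female replicates 3 and 4, lay within the *fru P1* range. The difference was −18.21 points (SE 5.35, 95% interval −29.2 to −7.21, limma adjusted p = 0.0402, exact permutation p = 0.000816). It was lost without any one of 11 libraries, with an adjusted p of up to 0.0903. These were 1-day *fru P1* male replicates 1, 3 and 4, 1-day *fru P1* female replicates 1, 3 and 4, *elav* male replicates 2, 3 and 4 and *elav* female replicates 1 and 2. Without the 2 libraries that stood apart it was −17.64 points (adjusted p = 0.0758). It was −9.05 points (adjusted p = 0.353) after subtraction of the library mean, −2.56 points (adjusted p = 1) with the 10000 peaks of smallest p, −16.65 points (limma adjusted p = 0.114) at a p-value cutoff of 0.05, and 1.09 points with peaks of at least 1.5-fold enrichment. At 10–12 days, body coverage of *Octbeta3R* had a lowest value of 18.5%, a median of 21.8% and a highest value of 36.0%. Against 1 day the difference was −16.27 points (adjusted p = 0.0597, exact permutation p = 0.00245) and was not called.

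The starts of the neighbours *Octbeta2R* and *Octbeta3R* were then examined in 1 kb bins. At the start of *Octbeta2R*, the bin from 3 to 2 kb upstream was covered to a mean of 78.7% at 1 day and 48.0% at 48hr APF, so the lower 1-day coverage did not extend to that bin. From 1 kb upstream to 3 kb downstream, *Octbeta2R* coverage at 1 day had a lowest value of 0%, a median of 0% and a highest value of 12.4%, and 6 of 8 libraries had none. At 48hr APF these were 3.63%, 46.3% and 100%, and no library had none. In *elav* neurons the highest value was 5.50%, and 6 of 8 libraries had none. In *Octbeta3R*, the same stretch had a lowest value of 0%, a median of 5.51% and a highest value of 22.3% at 1 day. At 48hr APF these were 3.35%, 56.1% and 79.3%. The ranges of 48hr APF and 1 day overlapped in both genes. Over the 2932 autosomal genes of at least 5 kb, bins from 1 kb upstream to 3 kb downstream averaged 16.4 to 30.4% at 1 day and 17.4 to 28.0% at 48hr APF. This stretch was chosen after the values were seen and is described with no test.

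**Figure D4:**
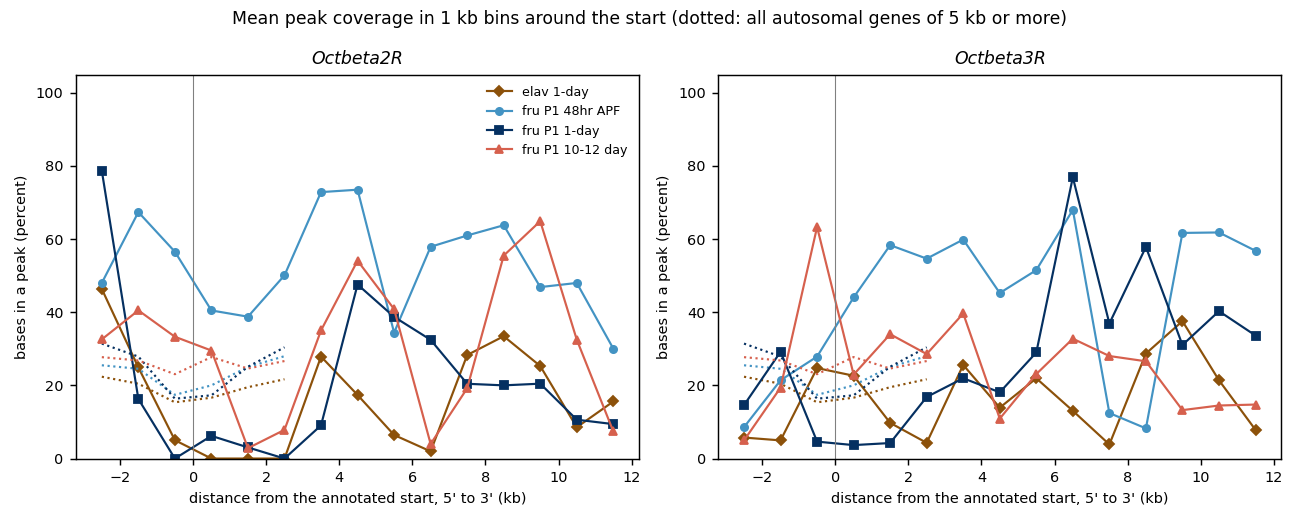
Mean percentage of bases in an H3K9me3 peak (vertical axis) in 1 kb bins from 3 kb upstream of the annotated start into the gene body (horizontal axis, in the direction of transcription) of *Octbeta2R* and *Octbeta3R*. Lines are the 3 *fru P1* stages and *elav* neurons, and dotted lines, which end 3 kb downstream, are the means of 2932 autosomal genes of at least 5 kb. The 1-day line of *Octbeta2R* drops to a mean of 0 to 16% between 2 kb upstream and 3 kb downstream.

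The 250 bases upstream of both starts are shown because they lie within the stretch described above, and no stage difference was tested in these bases. They lie in dm6 on the minus strand and overlap no other annotated gene, and capitals mark the 5-base match to CTCTC, the reverse complement of GAGAG.
Octbeta2R, chr3R:12595726-12595975, minus strand: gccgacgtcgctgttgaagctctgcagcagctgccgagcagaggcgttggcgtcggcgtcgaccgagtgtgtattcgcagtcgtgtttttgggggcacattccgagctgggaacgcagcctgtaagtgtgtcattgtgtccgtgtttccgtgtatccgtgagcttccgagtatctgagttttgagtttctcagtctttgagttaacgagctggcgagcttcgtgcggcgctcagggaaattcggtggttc
Octbeta3R, chr3R:12548230-12548479, minus strand: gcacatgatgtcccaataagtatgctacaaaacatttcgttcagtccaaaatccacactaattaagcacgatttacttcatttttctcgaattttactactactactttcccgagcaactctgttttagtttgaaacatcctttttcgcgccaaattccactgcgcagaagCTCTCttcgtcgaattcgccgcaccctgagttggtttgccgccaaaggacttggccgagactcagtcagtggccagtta

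Windows of 250 bases upstream of all 7 starts were searched on both strands for GAGAG, part of the element bound by GAGA factor, and for TATAAA, the core of the TATA box. These motifs do not overlap each other. GAGAG was found in 25.2% and TATAAA in 41.1% of the windows of all 18164 genes. Among the receptors, GAGAG was found upstream of *Octbeta3R* and *Oct-TyrR* and TATAAA upstream of *TyrRII*, each once. The upstream window of *Octbeta2R* held neither motif and had 56.4% GC, whereas that of *Octbeta3R* had 44.0%.

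The first base of each gene was also scored. At 48hr APF this base was covered in 2 of 8 *fru P1* libraries in *Octbeta2R* and *Octbeta3R*, in 3 in *Oct-TyrR*, in 1 in *TyrR*, in 5 in *Oamb*, in 4 in *Octbeta1R* and in 6 in *TyrRII*. At 1 day it was covered in 0 of 8 libraries in *Octbeta2R*, *Octbeta3R*, *Oct-TyrR* and *TyrR*, in 1 of 8 in *Oamb* and *Octbeta1R* and in 5 of 8 in *TyrRII*. At 10–12 days it was covered in 5 of 7 libraries in *Oamb*, in 4 of 7 in *Octbeta1R* and *Octbeta3R*, in 3 of 7 in *Octbeta2R* and *Oct-TyrR*, in 1 of 7 in *TyrRII* and in 0 of 7 in *TyrR*. In *elav* neurons it was covered in 4 of 8 libraries in *Oct-TyrR*, in 2 of 8 in *Octbeta1R* and *Octbeta3R*, in 1 of 8 in *TyrRII* and in 0 of 8 in *Oamb*, *Octbeta2R* and *TyrR*. Over autosomal genes of at least 5 kb, a start was covered in 16.0% of cases in *elav* neurons, and in 17.3% at 48hr APF, 14.9% at 1 day and 28.3% at 10–12 days in *fru P1* neurons.

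*Oct-TyrR* (FBgn0004514, chr3L:22035003-22065279, plus strand) encodes a receptor that responds to both amines and lowers cAMP. It had the highest mean gene body coverage of the 7 genes, and its highest values were in 1-day *fru P1* neurons. At 10–12 days, coverage was 33.8, 31.4, 40.5 and 31.8% in males (replicates 1 to 4) and 39.3, 10.8 and 28.3% in females (replicates 1, 3 and 4). At 1 day it was 59.9, 46.9, 59.0 and 49.0% in males and 43.0, 42.8, 47.6 and 51.5% in females. Every 10–12 day library was below every 1-day library, as in 1.09% of all genes tested. The difference was −19.71 points (SE 5.46, 95% interval −30.9 to −8.49, limma adjusted p = 0.0228, exact permutation p = 0.000408). It was lost without 10–12 day female replicate 3 (−15.88 points, adjusted p = 0.0817) and after subtraction of the library mean (−14.92 points, adjusted p = 0.0792). It was also lost with peaks of at least 1.5-fold enrichment (−16.69 points, adjusted p = 0.121), with the 10000 peaks of smallest p (−8.63 points, adjusted p = 0.485) and with peaks of q below 0.05 (0 points, adjusted p = 1).

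In *elav* neurons, *Oct-TyrR* coverage was 39.7, 35.5, 27.1 and 38.5% in males and 35.7, 34.9, 37.8 and 39.2% in females, and every value was again below every 1-day *fru P1* value, as in 1.47% of all genes. That difference of −13.93 points had an exact permutation p of 0.000408, but an adjusted p of 0.103 in limma, and was not called. The 1-day *fru P1* libraries also had the highest peak coverage of the autosomes as a whole, and the part of this in the result was not tested apart from the subtraction of the library mean. Between 1 day and 48hr APF the difference was 11.65 points (adjusted p = 0.149), with a 48hr APF range of 25.0 to 54.0%. In the TSS window, *Oct-TyrR* had 4.02 to 38.5% at 10–12 days, against 33.1 to 48.3% at 1 day and 27.9 to 83.1% at 48hr APF. The 10–12 day differences of −19.61 and −25.69 points had adjusted p of 0.0808 and 0.0529 and were not called.

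**Figure D5:**
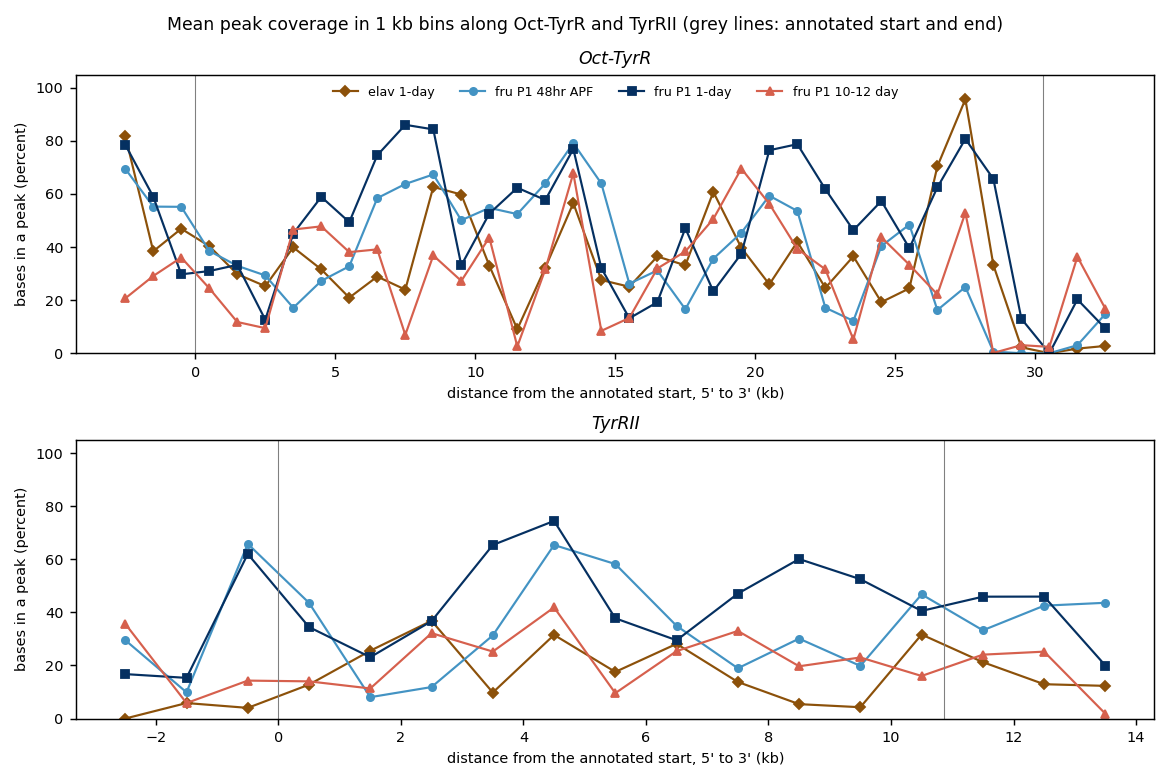
Mean percentage of bases in an H3K9me3 peak (vertical axis) in 1 kb bins along *Oct-TyrR* and *TyrRII* (horizontal axis, distance from the annotated start in kb). Lines are the 3 *fru P1* stages and *elav* neurons, and grey lines mark the annotated start and end. Over the whole *Oct-TyrR* body, coverage in *fru P1* neurons averaged 30.8% at 10–12 days and 49.96% at 1 day.

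*TyrR* (FBgn0038542, chr3R:17750129-17763188, minus strand) and *TyrRII* (FBgn0038541, chr3R:17736611-17747470, plus strand) encode receptors that respond to tyramine, *TyrR* the more selectively. They are neighbours with 2658 bp between their ends, and they are the shortest of the 7 genes, at 13060 and 10860 bp. Over the gene body they held a median of 4 (*TyrR*) and 3 (*TyrRII*) peaks per library, compared with 11 in *Octbeta2R*. The spread between their libraries was the widest over the gene body, but not in the TSS window, where the SD was 14.7 in *TyrRII* and 22.3 in *Oamb*. *TyrRII* coverage at 10–12 days had a lowest value of 5.78%, a median of 23.3% and a highest value of 36.0%, against 24.3%, 42.8% and 68.3% at 1 day. The ranges overlapped. The difference was −23.44 points (SE 7.45, 95% interval −38.8 to −8.12, limma adjusted p = 0.0445, exact permutation p = 0.0135). It was lost without any one of 13 libraries, with an adjusted p of 0.0507 to 0.102, after subtraction of the library mean (−18.64 points, adjusted p = 0.0709) and without the 2 libraries that stood apart (−22.8 points, adjusted p = 0.0776). It was also lost with peaks of at least 1.5-fold enrichment (−26.91 points, adjusted p = 0.053), with the 10000 peaks of smallest p (−21.73 points, adjusted p = 0.13) and on the arcsine square root scale (adjusted p = 0.0528). The 13 were 48hr APF male replicate 1, 1-day *fru P1* male replicates 1, 3 and 4 and female replicates 1, 3 and 4, 10–12 day male replicates 1 and 2 and female replicates 3 and 4, *elav* male replicate 3 and *elav* female replicate 4.

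In *elav* neurons *TyrRII* coverage had a lowest value of 6.57%, a median of 19.9% and a highest value of 36.3%. Against 1-day *fru P1* the difference was −26.18 points (SE 7.16, 95% interval −40.9 to −11.5, limma adjusted p = 0.0297, exact permutation p = 0.00286), the largest gene body difference among the receptors. It was lost without any one of 1-day *fru P1* male replicates 3 and 4, 1-day *fru P1* female replicate 3, *elav* male replicates 2 and 4 and *elav* female replicate 1, with an adjusted p of up to 0.0726, and stood at 0.05 without *elav* female replicate 2. After subtraction of the library mean it was −17.02 points (adjusted p = 0.162), with peaks of at least 1.5-fold enrichment −13.65 points (adjusted p = 0.477) and with the 10000 peaks of smallest p −20.5 points (adjusted p = 0.185). *TyrR* moved the same way without a call. Its gene body differences were −20.29 points between 10–12 days and 1 day (adjusted p = 0.0872), −17.70 points between 10–12 days and 48hr APF (adjusted p = 0.207) and −15.17 points between *elav* and *fru P1* (adjusted p = 0.208). At 10–12 days *TyrR* coverage ran from 3.35% in female replicate 4 to 44.0% in male replicate 1. Around its TSS, *TyrR* had a lowest value of 10.98%, a median of 26.9% and a highest value of 48.2% in *elav* libraries, against 22.5%, 56.2% and 82.7% in 1-day *fru P1* libraries. The ranges overlapped, and the difference of −22.99 points was not called (adjusted p = 0.0642, exact permutation p = 0.0212). *TyrRII* had 0 to 27.5% in the *elav* and 0.617 to 64.9% in the 1-day *fru P1* libraries in this window, and its difference of −17.22 points was not called (adjusted p = 0.0986).

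The sexes were then compared by a single male minus female difference, averaged across the 3 *fru P1* stages and *elav* neurons. Over the gene body, limma called 0 of 7 receptors, 0 had an unadjusted p below 0.05 and 0 had a permutation p below 0.05, against 0.418% of all genes called higher and 8.11% called lower in males. Among autosomal genes, which include all 7 receptors, these shares were 0.492% and 0.253%. The differences ran from −1.67 points (*Octbeta1R*) to 6.09 points (*Octbeta2R*). In the TSS window 1 of 7 was called, *Octbeta3R*, higher in males, against 0.855% of all genes and 1.01% of autosomal genes called higher. *Octbeta3R* coverage of the window averaged 50.5% in males, against 21.2% in females, at 48hr APF. Male and female means were 19.9 and 4.50% at 1 day, 39.0 and 15.3% at 10–12 days and 14.4 and 9.61% in *elav* neurons. The sexes overlapped in all 4 combinations of stage and cell type, and each had the same sign. Over all 4 the difference was 18.30 points (SE 5.30, 95% interval 7.63 to 29.0, limma adjusted p = 0.0102, permutation p = 0.00113 with 100000 resamples), and 17.2 points (adjusted p = 0.00957) after subtraction of the library mean. The call rests on the genes tested with it. Of the 2582 genes called between the sexes in this window, 152 higher and 34 lower in males were autosomal, and when only autosomal genes were tested the same difference had an adjusted p of 0.444. With only the peaks at a p-value cutoff of 0.05, limma gave 7.88 points (adjusted p = 0.613), and the difference was −0.97 points (adjusted p = 0.963) with the 10000 peaks of smallest p.

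Whether a stage or cell type difference itself differed between the sexes was tested with 4 interaction terms in each window. In limma, 0 of 7 receptors were called in any of them. At an unadjusted p below 0.05, there were 0 over the gene body and 1 in the TSS window, where *TyrRII* had a male minus female difference of the *elav* minus *fru P1* difference of −31.4 points (SE 14.2, unadjusted p = 0.0324, adjusted p = 1). In the TSS window limma called 0 of 7 receptors between 10–12 days and 1 day (background 12.1% lower) and 0 of 7 between *elav* and *fru P1* (background 9.43% lower), and 2 of 7 had an unadjusted p below 0.05 in each. By permutation p, *Octbeta3R* (0.0478) and *Oct-TyrR* (0.00122) were below 0.05 in the first and *TyrR* (0.0212) in the second.

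The other genes of the pathway were drawn from 3 lists, and their gene bodies were compared in the same fit. Of 6 genes, for the synthesis and transport of the amines and for a further octopamine receptor, 2 were called higher at 1 day than at 48hr APF, against 10.5% of all genes. *Tdc2*, the neuronal tyrosine decarboxylase that makes tyramine, differed by 40.9 points (SE 7.22, adjusted p = 8.17e-04), and *Vmat*, the vesicular monoamine transporter, by 21.3 points (adjusted p = 0.0314). After subtraction of the library mean, *Tdc2* had 31.3 points (adjusted p = 0.00329) and *Vmat* 11.7 points (adjusted p = 0.22), so that the *Vmat* call was lost. *Tdc2* was called lower at 10–12 days than at 1 day (−27.4 points, adjusted p = 0.0216) and lower in *elav* than in *fru P1* neurons (−24.5 points, adjusted p = 0.0406), the first of which held after the subtraction (−22.6 points, adjusted p = 0.0297) and the second of which did not (−15.3 points, adjusted p = 0.21). *Tbh*, the X-linked tyramine β-hydroxylase that makes octopamine, was called lower in males (−29.1 points, adjusted p = 1.84e-08), as were 8.11% of all genes and 0.253% of autosomal genes. Neither is the share among X-linked genes, which make up most of the genes called lower in males. The highest mean coverages in this list were 50.3% in *prt*, a transporter-like gene, and 43.1% in *Vmat*, and the lowest was 18.7% in *Tbh*. That mean pools 4.37 ± 4.28% in males (SD, n = 16) and 34.0 ± 7.47% in females (SD, n = 15), and peaks covered 0.839 to 7.53% of the X in male libraries and 19.5 to 31.3% in female libraries, so *Tbh* is not comparable with autosomal genes in this order. The median over the 6 was 16.3 points between 1 day and 48hr APF, compared with 1.44 over the receptors.

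Of 14 genes that act downstream of the receptors in cAMP and calcium signalling, 4 were called lower in males. Of all 17216 genes 1397 (8.11%), and of 14642 autosomal genes 37 (0.253%), were called lower. Most genes called lower in males were thus X-linked, and neither share is a background for X-linked genes. All 4 are on the X, where few peaks were called in males. They were *rut*, the adenylyl cyclase (−14.3 points), *dnc*, the cAMP phosphodiesterase (−16.7 points), *norpA*, a phospholipase C (−21.2 points), and *CrebB*, a cAMP-responsive transcription factor (−12.7 points). At 1 day 3 of 14 were called lower than at 48hr APF, against 1.78% of all genes, and all 3 held after subtraction of the library mean (−32.3 to −19.9 points). They were the protein kinase A subunit genes *Pka-C1* (−20.9 points, adjusted p = 0.00489) and *Pka-R1* (−10.3 points, adjusted p = 0.0437) and the kinase gene *CaMKII* (−22.7 points, adjusted p = 0.0248). Called lower in *elav* than in *fru P1* neurons were 3 of 14, against 5.92% of all genes. These were *Plc21C*, a phospholipase C (−15.2 points, adjusted p = 0.0279), *Itpr*, the inositol trisphosphate receptor (−15.8 points, adjusted p = 0.0468), and *Epac*, a cAMP-activated exchange factor (−17.8 points, adjusted p = 0.0221), and after the subtraction all 3 calls were lost (−8.61 to −6.07 points). Mean coverage was highest in *Galphai* (31.6%) and *Epac* (29.3%) and lowest in *CrebB* (7.27%), which is X-linked and had 1.26 ± 3.82% in males (SD, n = 16) and 13.7 ± 10.0% in females (SD, n = 15).

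Of 9 dopamine and serotonin receptor genes, 4 were called lower in *elav* than in *fru P1* neurons, against 5.92% of all genes, and all 4 calls were lost after subtraction of the library mean (−17.4 to −3.10 points). They were the dopamine receptor gene *Dop2R* (−12.3 points, adjusted p = 0.0347) and the serotonin receptor genes *5-HT1A* (−14.8 points, adjusted p = 0.0496), *5-HT1B* (−26.6 points, adjusted p = 0.0128) and *5-HT7* (−16.4 points, adjusted p = 0.0387). *5-HT7* was also called lower at 10–12 days than at 1 day (−18.3 points, adjusted p = 0.0208), which was lost after the subtraction (−13.5 points, adjusted p = 0.116), and at 47.2% had the highest mean coverage of this list, before *Dop1R2* at 38.9%. *DopEcR*, a receptor for dopamine and ecdysteroids, was called lower at 1 day than at 48hr APF (−17.9 points, adjusted p = 0.0241) and higher at 10–12 days than at 1 day (16.9 points, adjusted p = 0.0442, with 4.72% of all genes called higher). Both held after the subtraction. *Dop1R1* (−14.6 points, adjusted p = 0.0468) and *5-HT1A* (−17.9 points, adjusted p = 0.038) were called lower at 10–12 days than at 48hr APF, and both held after the subtraction. *Dop2R*, which is on the X, had the lowest mean (18.3%), with 5.87 ± 4.15% in males (SD, n = 16) and 31.5 ± 10.7% in females (SD, n = 15). It was called lower in males (−25.6 points, adjusted p = 3.82e-08), as were 8.11% of all genes and 0.253% of autosomal genes. Neither is the share among X-linked genes. *Dop2R* was called higher at 1 day than at 48hr APF (15.4 points, adjusted p = 0.00575), which did not hold after the subtraction (5.75 points, adjusted p = 0.294).

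For each receptor gene, the autosomal gene of at least 5 kb whose coverage varied most alike over the 31 libraries was found among 2847 candidates at least 100 kb away, after subtraction of each library's mean. Pearson's r is given as a description, since the libraries share stage, sex and cell type and the pair is the highest of many. It was 0.894 between *Octbeta2R* and *Snoo*, 0.840 between *Oamb* and *Calx*, 0.761 between *Octbeta3R* and *Stacl*, 0.732 between *TyrR* and *side*, 0.730 between *Octbeta1R* and *unc-5*, 0.713 between *Oct-TyrR* and *5-HT7* and 0.705 between *TyrRII* and *CG30158*.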

How the data were processed

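H3K9me3 peak lists of 31 libraries were used, and samples were grouped by their titles and characteristics. Adapters were removed by the authors with Trimmomatic, reads that aligned once to dm6 in Bowtie2 2.2.5 were kept, and the authors called broad peaks per replicate with MACS2 against input. The deposited positions are in bp, counted from 1. The deposited pileup is a signal, the mean fragment coverage of a peak, not scaled to depth. The authors deposited −log10 p and −log10 q values, used here as thresholds of p-value and q-value. Although these headers describe q as not calculated, the q column is filled in every list, and its entries were used unchanged. The deposited fold enrichment is a ratio to the local background. Lists hold weak regions, so percent coverage depends on depth and on the input. A fragment length of 200 bp was used in all lists but 1, *elav* male replicate 3, with 140 bp.

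The annotation was Ensembl release BDGP6.54, in dm6 coordinates, without transposable elements, and the genome was that of RefSeq. Percent coverage was fitted with limma 3.58.1 (R 4.3.3, trended empirical Bayes) to 8 group means over 17216 genes (gene body) or 17781 genes (TSS window) with any coverage. Sex was averaged over 4 combinations of stage and cell type, and the other comparisons over the sexes. Exact two-sided permutation tests within strata, or 100000 resamples for sex, were run per receptor (smallest p 0.000408). Their p-values were not adjusted for the number of receptors, windows and comparisons. No correction for counting error is included, and p-values measure the spread between replicates. Replicates of a *fru P1* group shared an input, so the error of that input is not part of the spread and p-values may be too small. Of 200 genes changed in data simulated for the *elav* comparison, 194 were recovered, with 16 false calls among 17216 genes.

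The receptors and the other gene lists were chosen with earlier results of these data known. Named genes were all 7 receptors, of the other lists each gene called over the gene body and the 2 highest and 1 lowest by mean coverage, and the most alike gene of each receptor. Differences of single receptors are given mainly where an unadjusted p was below 0.05. Alternatives were the arcsine square root scale, subtraction of the library mean, stricter peaks (a p-value cutoff or a q-value cutoff of 0.05, 1.5-fold or more, the 10000 of smallest p), other windows, a minimum mean coverage of 5%, autosomal genes only, no trend, the replicate block and each library left out. The subtraction for genes of the other lists was chosen after seeing the data. Python 3.11.15 and NumPy 2.4.6 were used.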

Additional observations from a re-analysis of the deposited data

Results flagged for a closer look

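Of 98 groups of 4 libraries tested for a library far from the other 3, 6 held one, and chance gives about 1 in 20. *Octbeta2R* had it in the TSS window in 1-day *fru P1* female replicate 1, at 21.78% against 10.58, 10.63 and 11.21%, and in 10–12 day *fru P1* male replicate 4, at 0% against 35.38, 38.86 and 40.39%. *Octbeta3R* had it in the TSS window in 48hr APF *fru P1* male replicate 1, at 78.45% against 37.26, 42.51 and 43.73%, and over the gene body in *elav* male replicate 1, at 32.47% against 15.19, 17.27 and 17.78%. *Octbeta1R* had 47.24% in the TSS window in *elav* male replicate 3, against 26.23, 27.65 and 29.3%. *Oct-TyrR* had 83.14% in the TSS window in 48hr APF *fru P1* female replicate 4, against 27.88, 31.36 and 33.56%. No receptor had a called difference between the sexes in a stage or cell type effect.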

How the results depend on the processing

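Counts of called receptors and of all called genes are given here by setting, with the reported count in brackets, for male against female, 1 day against 48hr APF, 10–12 days against 1 day, 10–12 days against 48hr APF and *elav* against *fru P1*, in short sex, early, late, whole and cell type. Of the 467 values of the 11 called receptor differences under other settings, 353 kept their call, 109 kept the direction but not the call and 5 turned. The causes were not tested.

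With the 10000 peaks of smallest p, all genes called over the gene body were 320 (1469) for sex, 383 (2109) early, 377 (1772) late, 43 (605) whole and 212 (1200) for cell type, with 0 receptors early (1), late (2), whole (1) and for cell type (3). In the TSS window they were 480 (2582), 580 (3369), 877 (4048), 188 (1148) and 252 (1912), with 0 receptors for sex (1), 1 early (2) and 0 whole (1). With peaks of at least 1.5-fold enrichment, gene body counts were 290, 1102, 962, 9 and 639 with 0 receptors, and TSS counts 476, 1871, 2063, 13 and 761 with 0 receptors. With peaks at a p-value cutoff of 0.05, gene body counts were 948 for sex, 205 whole and 639 for cell type, with 0 receptors whole and 1 for cell type, and TSS counts 442 whole and 827 for cell type, with 0 receptors for sex, early and whole. With peaks of q below 0.05, limma called 0 genes and 0 receptors in every comparison, among 166 genes over the gene body and 214 in the TSS window, and at most 11 had an unadjusted p below 0.05.

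Turned in sign were *Octbeta3R* over the gene body for cell type (1.09 points at 1.5-fold), *Oct-TyrR* over the gene body for cell type (4.87 points at 1.5-fold and 0.388 at q below 0.05), *Octbeta3R* in the TSS window for sex (−0.971 with 10000 peaks), *Octbeta2R* there early (1.71 with 10000 peaks) and whole (0.648 at 1.5-fold and 2.83 with 10000 peaks), and *Oct-TyrR* there late (0.0236 with 10000 peaks and 0.581 with 1 kb on each side).

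After subtraction of the library mean, called receptors over the gene body were 0 late (2), 2 whole (1) and 0 for cell type (3), and in the TSS window 1 late (0) and 2 whole (1). Counts of all genes called higher and lower became, over the gene body, 857 and 1729 early (1802 and 307), 1758 and 643 late (813 and 959), 234 and 144 whole (533 and 72, in all 378 of 605) and 451 and 183 for cell type (180 and 1020, in all 634 of 1200), and in the TSS window 1487 and 2657 (2720 and 649), 3572 and 1685 (1904 and 2144), 446 and 280 (983 and 165, in all 726) and 790 and 293 (236 and 1676, in all 1083). The median shift over autosomal genes was −8.90 points for cell type and 6.32 early over the gene body.

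With 1 kb on each side of the start, receptors called were 0 for sex (1), 1 early (2), 2 late (0) and 0 whole (1), and all genes 1161 for sex, 1072 early and 123 for cell type. With all annotated starts, 2 receptors were called late (0) and 1 for cell type (0). With 3 kb on each side of the gene body, all genes called were 2768, 4450, 4621, 1363 and 4065, and receptors 4 late (2) and 5 for cell type (3). On the arcsine square root scale, receptors over the gene body were 0 early (1), 1 late (2) and 0 whole (1), and all genes in the TSS window for cell type 3500 (1912). With autosomal genes only, limma called 0 genes for sex over the gene body (1469, with 905 of 14642 at an unadjusted p below 0.05) and 0 in the TSS window (2582, with 1053 of 15065), 0 receptors for sex there (1, with 1 at an unadjusted p below 0.05), and 399 genes whole over the gene body (605). Without the mean-variance trend, 2 receptors were called whole in the TSS window (1). Without both libraries that stood apart, a choice made after seeing the data, receptors over the gene body were 1 late (2) and 1 for cell type (3), and all genes for cell type 657 over the gene body and 1165 in the TSS window. Calls that held near the threshold were *TyrRII* for cell type (−27.17 points, limma adjusted p = 0.0481) and *Oct-TyrR* late (−19.62 points, 0.0402) over the gene body. Another was *Octbeta3R* for sex in the TSS window (15.09 points, limma adjusted p = 0.0451).

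Leaving out each library in turn, receptors called over the gene body were 0 to 1 early, 0 to 3 late, 0 to 1 whole and 0 to 3 for cell type, and in the TSS window 1 to 3 early, 0 to 1 late, 0 to 2 whole and 0 to 1 for cell type. All genes called were 319 to 935 whole and 555 to 1314 for cell type over the gene body, and 606 to 2126 whole and 800 to 2262 for cell type in the TSS window.

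Replicate numbers did not pair libraries between groups, with a mean correlation of deviations of −0.00429 for the same number and 0.00144 for other numbers, and in 0 of 28 pairs of groups was every correlation over 0.1. Deposited names of the 1-day *fru P1* female lists carry other numbers than the titles, which were used, so the check and the block are less certain for that group. Under the replicate block, *Octbeta3R* for cell type was −18.21 points with an adjusted p of 0.0538, and the other called receptor differences kept their calls.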
